A study of Mus musculus with 6 samples.

Results

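The genes described here are the 10 genes listed for making, packing, recovering and breaking down the monoamine transmitters dopamine, noradrenaline and serotonin in mice. They were chosen by symbol, and all 10 were found among the 24391 gene symbols of the count table. They were chosen for their role, but with earlier results of these data known. The tissue was frozen hemibrain taken on postnatal day 0. Of the 6 libraries, 3 are labelled Celf2 -/- (null, pups 2, 4 and 10) and 3 are labelled Celf2 +/- (heterozygous, pups 6, 7 and 11). CELF2 is an RNA-binding protein, and the controls also lack 1 allele, so no wild-type brain enters the comparison. The labels give neither litter nor sex nor dissection date, and nothing says how much brainstem each hemibrain held. Replicates are named by pup number, and the p-values measure only the spread between these pups.

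Monoamines are made by small groups of neurons whose cell bodies lie mainly in the brainstem and whose axons reach the whole brain. Dopamine neurons sit mostly in the ventral midbrain, with further groups in the hypothalamus and olfactory bulb, noradrenaline neurons in the locus coeruleus and other hindbrain nuclei, and serotonin neurons in the raphe nuclei. Tyrosine hydroxylase (Th) and tryptophan hydroxylase (Tph2) start the catecholamine and serotonin pathways, and aromatic amino acid decarboxylase (Ddc) carries out the next step of each. Dopamine beta-hydroxylase (Dbh) turns dopamine into noradrenaline. The vesicular transporter Slc18a2 loads all of these transmitters into vesicles, the plasma membrane transporters Slc6a3, Slc6a2 and Slc6a4 take dopamine, noradrenaline and serotonin back up, and the monoamine oxidases Maoa and Maob break them down. Because the samples were bulk tissue, fewer cells of a type and less RNA per cell cannot be told apart.

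Library totals lay between 28831997 and 36531980 counts. All 10 genes passed the filter on low counts, with mean counts per library from 94.0 for Dbh to 2264 for Maoa. Celf2 itself was at 448, 390 and 331 CPM (gene counts scaled to library size) in libraries labelled null and at 459, 403 and 362 CPM in heterozygous libraries (log2 fold change -0.07, SE 0.12, edgeR adjusted p = 0.955), so its total does not check the labels. Null replicate 2 stood apart, with 11.8% of its counts on the ribosomal RNA precursor Rn45s against 0.194% to 1.27% in the other libraries. Pan-neuronal genes such as Snap25 and Tubb3 were present at 5385 to 5780 CPM in sum in libraries labelled null and 5228 to 5981 CPM in heterozygous libraries, which is what the label of brain tissue calls for. Globin genes could not serve as a check for blood, since 4 of 5 red blood cell markers were listed at 0 in every library.

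Per unit of length, the monoamine oxidase Maoa was the most abundant of the 10, at 17.05 CPM per kilobase on average over the 6 libraries, where CPM are divided by transcript length. Its lowest library, at 15.35 CPM per kilobase, lay above the highest library of any other member, which was 8.47 for Ddc. Below it came Slc18a2 at 6.145, Ddc at 5.21, Th at 4.27, Slc6a4 at 3.55, Slc6a3 at 2.16, Maob at 2.03, Tph2 at 1.58, Slc6a2 at 1.255 and Dbh at 1.25 CPM per kilobase. Each of these neighbours in the order overlapped the next over the 6 libraries, so their order is not resolved beyond the spread.

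The comparison of null with heterozygous hemibrains asked whether transcript levels of the monoamine system differ when the second Celf2 allele is lost. The 10 genes fell into 2 patterns. The 7 genes Th, Tph2, Ddc, Dbh, Slc6a3, Slc6a2 and Slc6a4 had lower means in libraries labelled null, with log2 fold changes between -1.21 and -0.45, whereas Slc18a2, Maoa and Maob lay between -0.10 and 0.07. None of the 10 passed an adjusted p of 0.05 over all genes tested (0 of 10 by edgeR's quasi-likelihood test, against 0.00628% of 15925 genes; smallest adjusted p 0.749, for Ddc). DESeq2 also called 0 of 10, against 0.307% of its tested genes, and limma-voom called 0. At an unadjusted p under 0.05 edgeR counted 0 of 10, against 7.06% of all genes. DESeq2 counted 1 of 10, against 1128 of 20528 genes, and limma-voom 3 of 10, against 1123 of 15925 genes. Fold changes were negative for 9 of 10, against 50.3% of all genes, and below -0.8 for 5 of 10, against 1.18%, and the median was -0.73 against -0.001 over all genes tested. Without null replicate 2 the median of the 10 was -0.38, with 8 negative and 0 below -0.8, and without heterozygous replicate 6 it was -0.34, with 7 negative and 3 below -0.8. Without null replicate 4 it was -1.09, with 10 negative and 6 below -0.8. The groups did not overlap for 3 of the 10 (Dbh, Slc6a3 and Slc6a2, lower in libraries labelled null). Over all genes tested 12.7% did not overlap in either direction, and 6.47% were lower in libraries labelled null.

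**Figure D1:**
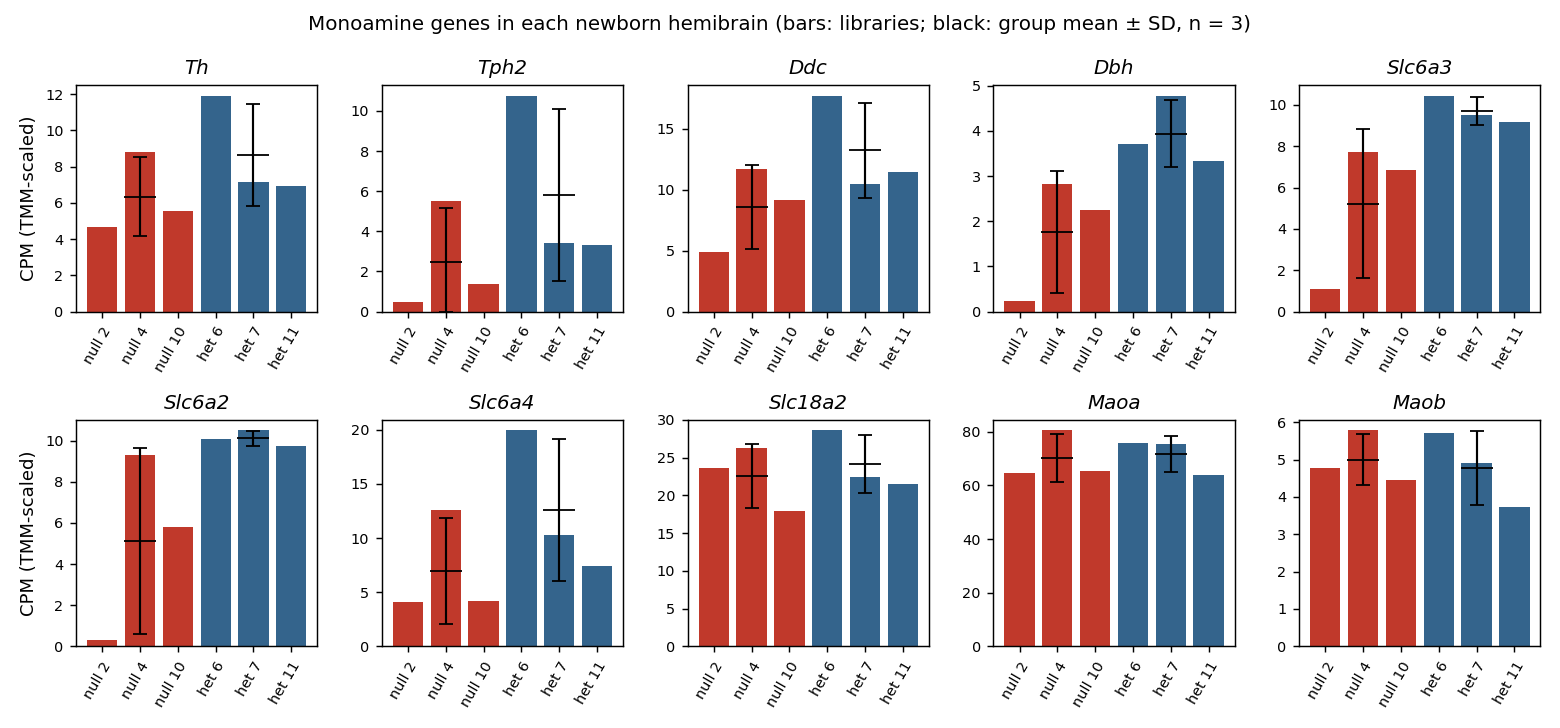
Level of each of the 10 monoamine genes in every library, in CPM on TMM-scaled library sizes, with a separate linear axis from 0 for each gene. Bars are libraries, with null replicates in red and heterozygous replicates in blue, and black marks are the group mean ± SD (n = 3 each; a lower error bar that would pass 0 stops there). Null replicate 2 is the lowest bar for 7 genes and reaches 23.6 CPM for Slc18a2, inside the range of the others.

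Dopamine genes separated the groups at the transporter and not at the first enzyme. The dopamine transporter Slc6a3 was at 1.10, 7.73 and 6.83 CPM in null replicates 2, 4 and 10, against 10.4, 9.49 and 9.17 CPM in heterozygous replicates 6, 7 and 11. Every library labelled null thus lay below every heterozygous library, by a narrow margin for replicates 4 and 10 and by a wide one for replicate 2. Its mean was 5.22 ± 3.60 CPM in libraries labelled null and 9.70 ± 0.66 CPM in heterozygous libraries (SD, n = 3 each; log2 fold change -0.88, SE 0.61, 95% limits -2.38 and 0.63, adjusted p by edgeR = 0.853). Without null replicate 2 the log2 fold change was -0.41 (unadjusted p = 0.0298, adjusted p = 0.826 by edgeR over all genes tested).

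Th, which dopamine and noradrenaline neurons share, was at 4.65, 8.80 and 5.54 CPM in null replicates 2, 4 and 10, against 11.9, 7.17 and 6.92 CPM in heterozygous replicates 6, 7 and 11. The groups overlapped, because null replicate 4 lay above heterozygous replicates 7 and 11. For Th the log2 fold change was -0.45 (SE 0.28, 95% limits -1.07 and 0.17, adjusted p by edgeR = 0.816), and for Th it was -0.27 without null replicate 2, -0.15 without heterozygous replicate 6 and -0.77 without null replicate 4 (unadjusted p = 0.0166, adjusted p = 0.651, by edgeR). The ratio of Slc6a3 to Th was 0.237 in null replicate 2 and 0.876 to 1.33 in the other 5 libraries.

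Noradrenaline genes showed the same split between null replicate 2 and the rest, and it was deepest there. The noradrenaline transporter Slc6a2 was at 0.315, 9.30 and 5.78 CPM in null replicates 2, 4 and 10, against 10.1, 10.5 and 9.74 CPM in heterozygous replicates 6, 7 and 11. Its 8 counts in null replicate 2 have an exact Poisson interval of 0.136 to 0.621 CPM for counting error only, and the next lowest library was 18.3 times higher. Heterozygous libraries agreed closely (10.1 ± 0.38 CPM, SD, n = 3), and those labelled null averaged 5.13 ± 4.53 CPM (log2 fold change -0.96, SE 0.93, 95% limits -3.38 and 1.47, adjusted p by edgeR = 0.908).

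Dbh was at 0.236, 2.81 and 2.24 CPM in null replicates 2, 4 and 10, against 3.71, 4.78 and 3.33 CPM in heterozygous replicates 6, 7 and 11. As for Slc6a2, each library labelled null lay below each heterozygous library. The margin between null replicate 4 and heterozygous replicate 11 was narrow for Slc6a2, at 314 against 342 counts. For Dbh it was 95 against 117 counts. The log2 fold change of Dbh was -1.12 (SE 0.61, 95% limits -2.57 and 0.33, adjusted p by edgeR = 0.802). Without null replicate 2 it was -0.63 for Dbh (unadjusted p = 0.0263, adjusted p = 0.812) and -0.42 for Slc6a2 (unadjusted p = 0.0716, adjusted p = 0.912, both by edgeR). With a Y-linked covariate (Ddx3y) the log2 fold change was -1.84 for Dbh (adjusted p = 0.400 by edgeR), -1.93 for Slc6a2 (adjusted p = 0.760 by edgeR) and -1.51 for Slc6a3 (adjusted p = 0.626 by edgeR). Among libraries labelled null only replicate 2 had Ddx3y counts (1663, against 0 in replicates 4 and 10). Within that group the covariate and replicate 2 therefore cannot be told apart. For Slc6a2 limma-voom gave -1.79 (unadjusted p = 0.0493, adjusted p = 0.709), and without null replicate 4 it was -1.63 for Dbh and -1.70 for Slc6a2. Dbh and Slc6a2 ordered the 6 libraries identically, with heterozygous replicates 7, 6 and 11 above null replicates 4, 10 and 2, an order shared by 0.571% of all genes tested.

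Serotonin genes were the members that varied most among the heterozygous libraries themselves. Tph2, the enzyme of brain serotonin synthesis, was at 0.473, 5.51 and 1.39 CPM in null replicates 2, 4 and 10, against 10.8, 3.40 and 3.30 CPM in heterozygous replicates 6, 7 and 11. Heterozygous replicate 6 held 3.26 times the level of heterozygous replicate 11, and null replicate 4 lay above heterozygous replicates 7 and 11. The log2 fold change was -1.21 with a wide error (SE 0.98, 95% limits -3.76 and 1.34, adjusted p by edgeR = 0.886). It was -0.41 without heterozygous replicate 6, -0.75 without null replicate 2 and -2.62 without null replicate 4.

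The serotonin transporter Slc6a4 was at 4.10, 12.6 and 4.22 CPM in null replicates 2, 4 and 10, against 19.9, 10.3 and 7.43 CPM in heterozygous replicates 6, 7 and 11. Null replicates 2 and 10 were alike here, which was not so for Slc6a3, Slc6a2 or Dbh. The log2 fold change was -0.84 (SE 0.60, 95% limits -2.35 and 0.67, adjusted p by edgeR = 0.863), and leaving out single libraries took it to between -1.60 (without null replicate 4) and -0.33 (without heterozygous replicate 6). Tph2, Slc6a4 and Th ordered the libraries identically, with heterozygous replicate 6 first, then null replicate 4, heterozygous replicates 7 and 11, and null replicates 10 and 2. Of all genes tested 41, or 0.257%, had this order, among them Fev, a transcription factor of serotonin neurons. Fev was at 0.0394, 1.04 and 0.170 CPM in null replicates 2, 4 and 10, against 1.94, 0.875 and 0.199 CPM in heterozygous replicates 6, 7 and 11. Its lowest ranks rest on 7, 5 and 1 counts in heterozygous replicate 11 and null replicates 10 and 2, so they are not resolved. The other serotonin neuron factors, Lmx1b, Gata2, Gata3 and Nkx2-2, had other orders. The ratio of Slc6a4 to Tph2 was 8.67 in null replicate 2 and 1.85 to 3.03 in the others. In null replicate 2 it rests on 12 counts of Tph2, with an exact Poisson interval of 0.244 to 0.826 CPM, so its size is uncertain. As background, thalamic neurons of newborn rodents transiently express Slc6a4 and Slc18a2 without making serotonin.

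Ddc, which all 3 transmitter pathways use, was at 4.89, 11.7 and 9.11 CPM in null replicates 2, 4 and 10, against 17.7, 10.5 and 11.5 CPM in heterozygous replicates 6, 7 and 11. Null replicates 4 and 10 lay near heterozygous replicates 7 and 11, and heterozygous replicate 6 was highest. The log2 fold change was -0.62 (SE 0.31, 95% limits -1.32 and 0.08, adjusted p by edgeR = 0.749). It was -0.35 without null replicate 2 and -0.35 without heterozygous replicate 6. An antisense gene overlaps Ddc, and the same holds for Slc6a4 and Slc18a2, so reads of both strands may be mixed in these counts. DESeq2 gave Ddc an unadjusted p of 0.0226 and an adjusted p of 0.694.

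Slc18a2 did not follow the other transporters. It was at 23.6, 26.3 and 17.95 CPM in null replicates 2, 4 and 10, against 28.6, 22.4 and 21.45 CPM in heterozygous replicates 6, 7 and 11. Null replicate 2 lay inside the range of the others and at 105% of the median of the other 5 libraries, whereas its Slc6a2 was at 3.24% and its Slc6a3 at 12.03% of theirs. The ratio of Slc18a2 to Slc6a3 was 21.4 in null replicate 2 and 2.34 to 3.40 in the others. The log2 fold change of Slc18a2 was -0.10 (SE 0.16, 95% limits -0.45 and 0.26, adjusted p by edgeR = 0.955).

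Monoamine oxidases overlapped between the groups and had the narrowest errors with Slc18a2. Maoa was at 64.8, 80.5 and 65.3 CPM in null replicates 2, 4 and 10, against 75.7, 75.5 and 63.9 CPM in heterozygous replicates 6, 7 and 11. Its log2 fold change was -0.03 (SE 0.11, 95% limits -0.27 and 0.21, adjusted p by edgeR = 0.983). Maob was at 4.77, 5.78 and 4.45 CPM in null replicates 2, 4 and 10, against 5.70, 4.91 and 3.73 CPM in heterozygous replicates 6, 7 and 11, and its log2 fold change was 0.07 (SE 0.20, 95% limits -0.38 and 0.51, adjusted p by edgeR = 0.976). For each, null replicate 4 was the highest library and heterozygous replicate 11 the lowest. Both genes lie on the X chromosome. Sex is not labelled, and counts of Y-linked Ddx3y were 0 in null replicates 4 and 10 and heterozygous replicate 7. Xist was at 1346, 1275 and 1140 CPM in those libraries and at 0.315 to 0.627 CPM in the others. By these 2 genes null replicate 2 and heterozygous replicates 6 and 11 read as male and the others as female. Sex was thus not balanced between the groups. With a Y-linked covariate, 0 of the 10 genes passed and the Maoa and Maob fold changes kept their sign.

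**Figure D2:**
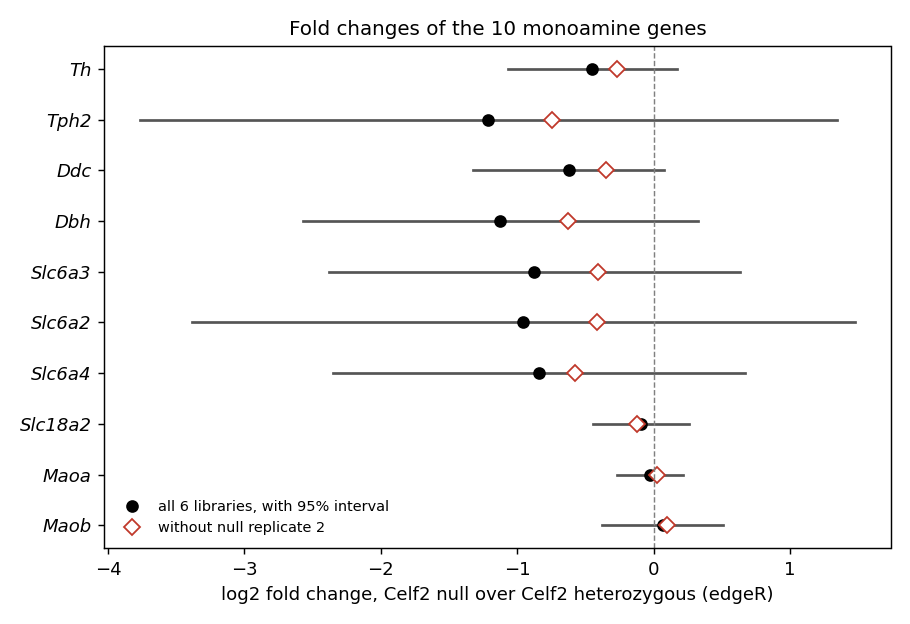
Log2 fold change of each of the 10 genes, null over heterozygous, from edgeR. Filled points with 95% intervals use all 6 libraries, and open diamonds leave out null replicate 2. Each interval spans 0, and Th, Tph2, Ddc, Dbh, Slc6a3, Slc6a2 and Slc6a4 lie nearer 0 without that library, Slc6a2 at -0.42 in place of -0.96.

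Null replicate 2 was the lowest of the 6 libraries and null replicate 10 the next lowest for 7 of the 10 genes, an arrangement found in 4.92% of all genes tested. In null replicate 2 the genes Dbh, Slc6a3 and Slc6a2 lay more than 5 times below the lowest other library, as did 35 genes, or 0.220%, of all tested, these 3 included. This level was chosen after the values were seen. Markers of brain regions were set beside these values. The 6 midbrain genes summed to 20.6, 59.3 and 79.5 CPM in null replicates 2, 4 and 10, against 64.5, 66.8 and 74.4 CPM in heterozygous replicates 6, 7 and 11. The midbrain factors En1 and En2 were at 0.630 and 0.985 CPM in null replicate 2. Pax5, Pou4f1 and Barhl1 were also lowest there, at 0.0394, 4.96 and 8.98 CPM. Pax7 was not, at 4.96 CPM in null replicate 2 against 3.33 CPM in heterozygous replicate 7. The midbrain sum was lowest in null replicate 2, with null replicate 4 next at 59.3 CPM. It was highest in null replicate 10, the next lowest library for the 7 monoamine genes, where Barhl1 gave 26.2 and En2 17.95 CPM of it. Single genes differed from the sum. En1 was at 6.81 and 8.06 CPM in null replicates 4 and 10, against 11.0, 8.18 and 9.74 CPM in heterozygous replicates 6, 7 and 11. En1 and Pax5 were thus lower in every library labelled null, while En2, Pax7, Pou4f1 and Barhl1 overlapped. En1 and En2 are also listed as dopamine neuron factors. The 9 telencephalic genes summed to 1426 to 1654 CPM in libraries labelled null, highest in replicate 2, and to 1095 to 1201 CPM in heterozygous libraries.

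The sum of hindbrain and spinal Hox genes separated the groups as well. Hox genes are active in hindbrain and spinal cord but not in more anterior brain, and the 11 listed summed to 3.74, 7.08 and 3.40 CPM in null replicates 2, 4 and 10, against 21.1, 189 and 10.6 CPM in heterozygous replicates 6, 7 and 11. Of the 8 tested, 6 were lower in every library labelled null, against 6.47% of all genes tested. Groups overlapped for Hoxa4 and Hoxa5, and for the untested Hoxb5 and Hoxd4. In heterozygous replicate 7, Hoxa5 and Hoxb5 were at 48.5 and 43.6 CPM. Heterozygous replicate 7, with the highest Hox sum, also had the highest Dbh, at 4.78 CPM against 3.71 and 3.33 CPM in heterozygous replicates 6 and 11. Its Slc6a2 was highest by a narrow margin only, at 10.5 CPM against 10.1 and 9.74 CPM in those libraries. The lowest Hox sum was in null replicate 10, with Dbh at 2.24 CPM, whereas the lowest Dbh was in null replicate 2, at 0.236 CPM. The 6 pituitary genes summed to 79.5 CPM in heterozygous replicate 7 against 2.17 to 15.3 CPM in the other libraries. The sums of 10 astrocyte genes were 1298 to 1610 CPM in libraries labelled null and 1679 to 1818 CPM in heterozygous libraries. The 8 hypothalamic genes summed to 40.15 to 42.0 CPM in libraries labelled null and 38.3 to 63.6 CPM in heterozygous libraries. Pomc is in both the hypothalamic and the pituitary list, and it made up 20.9 CPM of the 63.6 CPM in heterozygous replicate 7. The 8 endothelial and pericyte genes summed to 238 to 295 CPM in libraries labelled null and 234.5 to 275 CPM in heterozygous libraries. The part of regional and cell-type content in the monoamine values was not tested. The 5 sympathetic and adrenal genes summed to 10.1 to 13.95 CPM in libraries labelled null and 11.9 to 14.9 CPM in heterozygous libraries, most of it Star, a steroid synthesis gene, at 9.42 to 13.9 CPM over the 6 libraries. Pnmt, which makes adrenaline, lay at 0.510 to 0.906 CPM in libraries labelled null and 0.798 to 1.43 CPM in heterozygous libraries, and Cyp17a1 had 0 to 6 counts a library. Hand1 had 1 count in null replicate 2 and 0 in the others, and Hand2 had 0 counts in every library, which allows up to 0.0807 to 0.118 CPM. The 6 mast cell genes summed to 0.476 to 1.10 CPM in libraries labelled null and 0.741 to 2.36 CPM in heterozygous libraries.

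Factors that specify the same neurons were mostly lower in mean, and 0 of the 15 tested passed over all genes tested. Among dopamine neuron factors En1 was at -0.89, Foxa2 at -0.67, En2 at -0.48, Foxa1 at -0.31, Pitx3 at -0.26 and Lmx1a at -0.25 in log2 fold change. In null replicate 2 both Pitx3 and Foxa2 had 0 counts (limit 0.118 CPM). In the other libraries Pitx3 lay between 0.505 and 0.915 CPM, and Foxa2 between 0.826 and 2.85 CPM. Nr4a2, which dopamine neurons need but cortical neurons also express, was higher in every library labelled null, at 49.3, 51.3 and 50.5 CPM in null replicates 2, 4 and 10, against 32.5, 39.6 and 38.2 CPM in heterozygous replicates 6, 7 and 11 (log2 fold change 0.45, SE 0.10, edgeR adjusted p = 0.368). DESeq2 called Nr4a2 higher (adjusted p = 0.0185).

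The 3 noradrenaline neuron factors given here overlapped between the groups. Among them Phox2a was at 0.0394, 0.859 and 0.442 CPM in null replicates 2, 4 and 10, against 0.699, 1.35 and 0.769 CPM in heterozygous replicates 6, 7 and 11. Null replicate 2 was lowest for Phox2a and Tlx3, as it was for Dbh and Slc6a2. In log2 fold change Phox2a was at -0.98, Tlx3 at -1.34 and Tfap2b at 0.22. Among serotonin neuron factors Fev was at -1.19, Lmx1b at -0.98, Gata2 at -0.36, Nkx2-2 at -0.34 and Gata3 at -0.09.

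**Figure D3:**
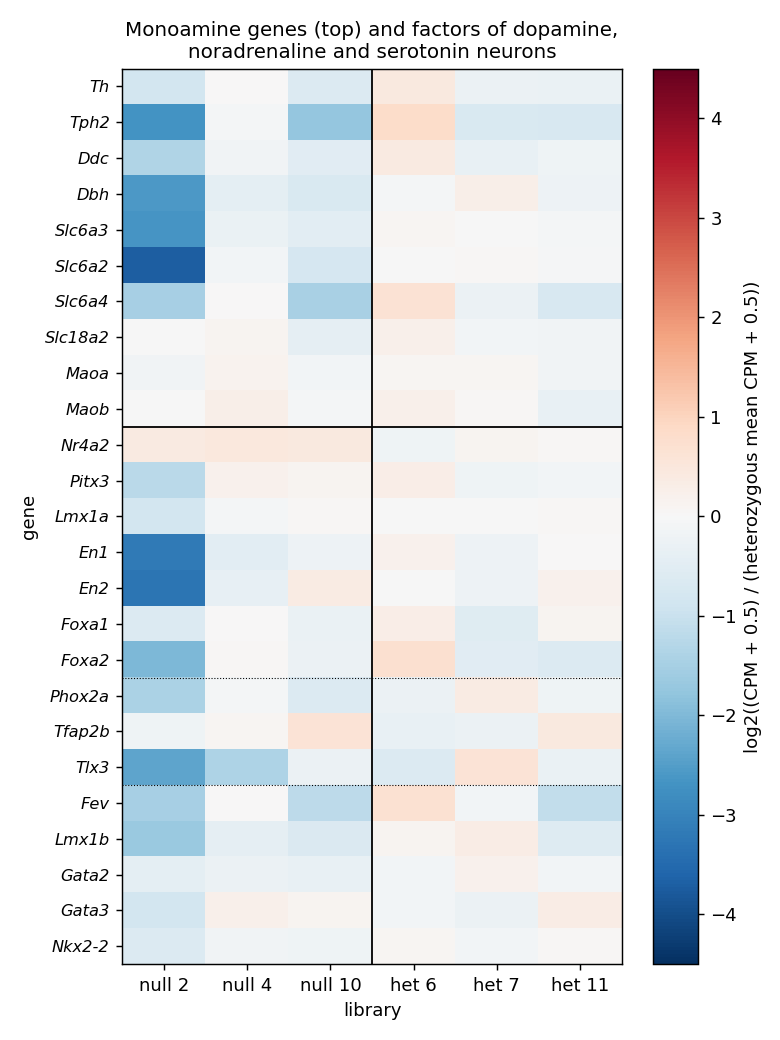
Each cell is log2 of (CPM + 0.5) in 1 library over (mean CPM of the heterozygous libraries + 0.5), for the 10 monoamine genes above the solid line and factors of dopamine, noradrenaline and serotonin neurons below it, split by dotted lines. Null libraries are left of the vertical line. Null replicate 2 is deep blue for Slc6a2, Dbh, Slc6a3 and Tph2 and near white for Slc18a2, Maoa and Maob.

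None of the other genes of monoamine metabolism passed the test. Of 19 cofactor genes, further enzymes and carriers, 0 passed, 13 had negative fold changes and the median log2 fold change was -0.24, against -0.001 over all genes tested. The most abundant were the polyspecific transporter Slc29a4 (0.15), the aldehyde dehydrogenase Aldh2 (0.06) and Qdpr (0.09), which recycles the hydroxylases' cofactor. Gch1, which starts synthesis of that cofactor, was at 2.01, 4.21 and 1.90 CPM in null replicates 2, 4 and 10, against 4.92, 3.77 and 3.90 CPM in heterozygous replicates 6, 7 and 11 (log2 fold change -0.62, edgeR adjusted p = 0.728). Aldh1a1, an aldehyde dehydrogenase of some midbrain dopamine neurons, was at -0.85, with 2.05 CPM in null replicate 2 and 5.81 to 14.4 CPM in the others. The uptake carrier Slc22a3 was at 3.82, 3.56 and 3.94 CPM in null replicates 2, 4 and 10, against 6.32, 5.12 and 5.10 CPM in heterozygous replicates 6, 7 and 11. Its log2 fold change was -0.55 (SE 0.17, edgeR adjusted p = 0.545), and null replicate 2 did not stand apart for it.

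Receptors for monoamines lie on target cells throughout the brain. Of 28 receptor genes 26 were tested, 0 passed, 15 had negative fold changes and the median was -0.03. The serotonin receptor Htr2c, also strongly expressed in choroid plexus, was at 16.1, 16.1 and 16.8 CPM in null replicates 2, 4 and 10, against 22.7, 25.9 and 21.65 CPM in heterozygous replicates 6, 7 and 11 (log2 fold change -0.52, SE 0.11, edgeR adjusted p = 0.368). DESeq2 called Htr2c lower (adjusted p = 0.0208). The 5 choroid plexus markers summed to 768, 520 and 661 CPM in null replicates 2, 4 and 10, against 548.5, 812 and 551 CPM in heterozygous replicates 6, 7 and 11, and this sum did not separate the groups. Adra2a was at -0.20, Htr7 at -0.32, Adra1b at -0.38 and Htr6 at 0.35. Over the 5 related lists together, 60 of 62 genes were tested, 13.3% had an unadjusted p under 0.05, against 7.06% of all genes, and the groups did not overlap for 12 of the 60, against 12.7% of all genes.

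**Figure D4:**
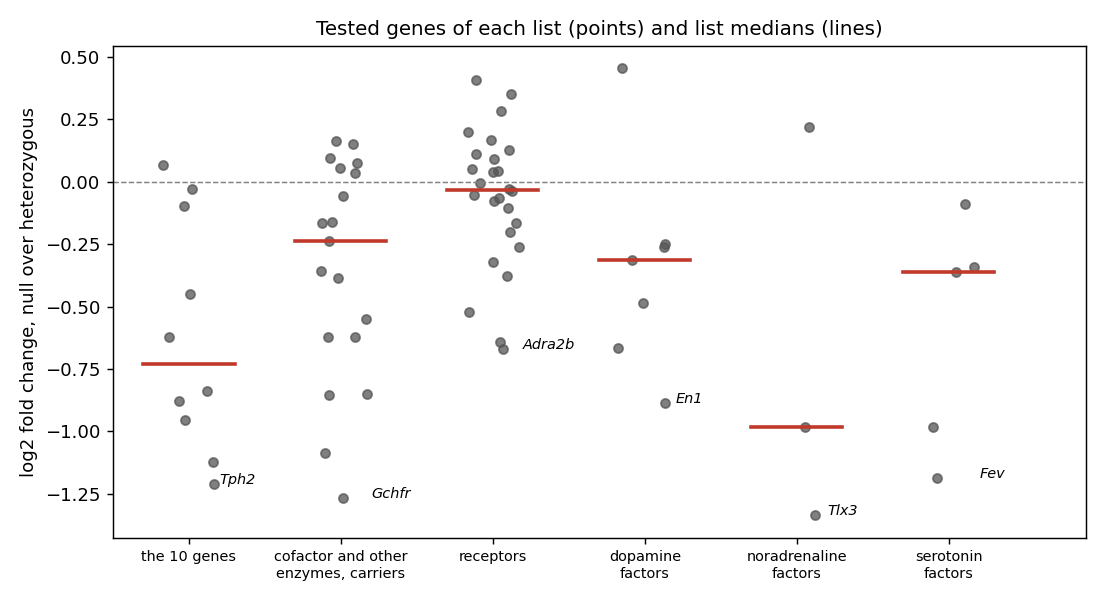
Log2 fold changes, null over heterozygous, of the tested genes in each list (points, shifted sideways for legibility) with list medians as red lines and the gene of largest absolute change named. The medians run from -0.03 for receptors to -0.98 for noradrenaline factors, and the median over all genes tested was -0.001.

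Genes with the most similar pattern were found by the root mean square distance of log2 CPM, centred over the 6 libraries, among 13080 genes for the pairs and 13081 for Maoa and Maob. Nearest to the mean of Dbh and Slc6a2 were Slc6a3 (distance 0.21), En1 (0.28), Pax5 (0.33), Irx4 (0.36) and Aldh1a1 (0.41), against a median distance of 1.14 over all genes searched. Pax5, a midbrain-hindbrain factor, was at 0.0394, 2.02 and 1.73 CPM in null replicates 2, 4 and 10, against 2.23, 2.12 and 2.11 CPM in heterozygous replicates 6, 7 and 11. Nearest to the mean of Th and Slc6a3 were C1ql4 (0.14), Ddc (0.18), Il33 (0.22), Agt (0.23) and Irx3 (0.25), against a median of 0.66. Nearest to the mean of Tph2 and Slc6a4 were Aldh1a1 (0.43), Ddc (0.50), Slc30a3 (0.52), Th (0.54) and Gch1 (0.54), against a median of 0.95. Maoa lay nearest to Tceal5, Pyurf, Lpcat2, Rcan2 and Zfr (0.0279 to 0.0328, against a median of 0.18). Maob lay nearest to Klhl36, Frrs1, H1fx, Clic1 and Prpsap2 (0.043 to 0.0501, against a median of 0.23). These distances describe 6 libraries in which 1 library sets much of the range.

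Promoter letters are shown because 2 libraries labelled null carried high levels of Fos, a component of the AP-1 transcription factor that neurons induce on stimulation, and the Th promoter is known for a cAMP response element. Fos was at 78.3, 235 and 4.86 CPM in null replicates 2, 4 and 10, against 8.53, 6.43 and 4.501 CPM in heterozygous replicates 6, 7 and 11. RefSeq promoters (GRCm38.p6, 250 bases before to 50 after each start) were at hand for 8 of the 10 genes. On both strands, TGACGTCA (the cAMP response element) was found for Th and Slc18a2 and in 1.79% of 32851 promoters, and TGANTCA (the AP-1 site) for Th and Ddc and in 7.81%. Capitals mark the match in each 30-base window.
Th cAMP response element, chr7:142900022-142900051, minus strand: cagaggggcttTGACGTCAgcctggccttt
Slc18a2 cAMP response element, chr19:59260863-59260892, plus strand: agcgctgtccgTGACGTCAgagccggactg
Th AP-1 site, chr7:142900187-142900216, minus strand: agggcggagggTGATTCAgaggcaggtgcc
Ddc AP-1 site, chr11:11898255-11898284, minus strand: agggcttgttgTGAATCAagctcactgggt
The Th element begins 45 bases before the start and that of Slc18a2 spans the start. Null replicate 4, with the highest Fos, was the second highest library for Th, Slc18a2 and Ddc, and null replicate 2, with the next highest Fos, was lowest for Th and Ddc and below heterozygous replicate 6 and null replicate 4 for Slc18a2. A match describes letters and not a bound site, and a part of Fos in the levels of these genes was not tested.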

How the data were processed

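The authors deposited a table of raw read counts (whole numbers) for 24391 gene symbols in 6 libraries, with gene lengths. Per the labels' protocols, TRIzol RNA went into a low-input stranded kit for total RNA, while the molecule field and the design text name poly(A) RNA. Per the submitters' processing notes, the builds were hg19 and mm9 and the tools MACS2, STAR, cutadapt, Picard, CASAVA and bedtools, with no roles given. How reads were counted, with which annotation and strand setting, is not given in the sources used here. Values of Ddc, Slc6a4 and Slc18a2, which have an antisense gene within or across them in GENCODE M21 (GRCm38), are uncertain to that extent. No 2 libraries agreed within sampling noise (chi-square per gene at least 13.45).

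The default filterByExpr rule kept 15925 genes. Quasi-likelihood tests were run in edgeR 4.0.16 (R 4.3.3) on TMM-scaled libraries, with robust estimation, and p-values were adjusted by Benjamini-Hochberg over all genes tested (threshold 0.05). Standard errors are the fold change over the square root of F. CPM use TMM-scaled library sizes, and CPM per kilobase divide by the deposited length. Alternatives were DESeq2 1.42.0, limma-voom (limma 3.58.1), other size factors and filters, removal of structural RNAs, a Y-linked covariate and leaving out each library. The fits were tested on simulated counts. Poisson intervals and limits for 0 counts (3 counts) cover counting error only. The rule named all 10 members, each tested neuron factor, each related gene called, and the 3 most abundant and 3 most changed genes (mean of at least 50 counts) of the cofactor and receptor lists. Genes of similar pattern were the 5 nearest. The members, lists and rules were chosen with earlier results of these data known. A gene of the related lists is not reported here and is left out of their counts.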

Additional observations from a re-analysis of the deposited data

How the results depend on the processing

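No paired analysis was possible because the groups share 0 pup numbers. The count of members called was 0 in all 16 alternatives. The count with an unadjusted p under 0.05 was 1 with DESeq2 (Ddc), against 1128 of 20528 genes. It was 3 with limma-voom (Dbh, Slc6a3 and Slc6a2), against 1123 of 15925 genes. With the Y-linked covariate it was 2 (Dbh and Slc6a3), against 1214 of 15925 genes. Without single libraries it was 0 to 5. Leaving out null replicate 2 gave 2 (Dbh and Slc6a3), against 912 of 16236 genes. Leaving out null replicate 4 gave 5 (Th, Tph2, Ddc, Dbh and Slc6a4), against 1087 of 16056 genes. Related genes called numbered 2 with DESeq2 (Nr4a2 and Htr2c). Over all genes the count, 1 in the fit reported, was 0 with DESeq2 size factors, a CPM minimum, limma-voom, no robust estimation or structural RNAs removed, 2 with upper-quartile factors or library size alone, 3 with no low-count filter, 10 with the Y-linked covariate, 62 with DESeq2, and 0 to 4 without single libraries. The 7 genes from Th to Slc6a4 kept negative fold changes in all 16 alternatives. Maob changed sign with library size alone (-0.014), where the median of all genes was -0.09. Without single libraries Maob ranged from -0.0862 to 0.216, Maoa from -0.14 to 0.0268 and Slc18a2 from -0.22 to 0.046. The cause was not tested. Depth limits null replicate 2 most, where Dbh, Slc6a2 and Tph2 rest on 6, 8 and 12 counts.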

Other observations

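The 3 pineal genes did not share 1 pattern. Tph1, the tryptophan hydroxylase of the pineal gland and of peripheral tissue, was at 0.709, 0.415 and 0.646 CPM in null replicates 2, 4 and 10, against 0.377, 0.505 and 2.82 CPM in heterozygous replicates 6, 7 and 11. Crx, a transcription factor of pineal and retina, had 37 counts in heterozygous replicate 11 and 0 to 2 counts in each of the other libraries. Aanat, which makes the precursor of melatonin, was at 0.749, 0.444 and 0.578 CPM in null replicates 2, 4 and 10, against 0.619, 1.01 and 0.769 CPM in heterozygous replicates 6, 7 and 11, so it was highest in another library than Tph1 and Crx. Heterozygous replicate 11 was not high for the brain enzyme Tph2.

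The 4 thalamic genes, chosen after the values were seen, differed in their place in null replicate 2, which was highest for Tcf7l2 and second lowest for Rora. Tcf7l2 was at 195, 151 and 184.5 CPM in null replicates 2, 4 and 10, against 160.5, 96.0 and 167 CPM in heterozygous replicates 6, 7 and 11. Lhx9 was at 40.5, 33.6 and 52.4 CPM in null replicates 2, 4 and 10, against 34.1, 25.35 and 50.4 CPM in heterozygous replicates 6, 7 and 11. Gbx2 was at 13.5, 12.4 and 12.04 CPM in null replicates 2, 4 and 10, against 16.7, 14.1 and 11.8 CPM in heterozygous replicates 6, 7 and 11. Rora was at 30.7, 30.6 and 39.0 CPM in null replicates 2, 4 and 10, against 36.0, 39.6 and 39.45 CPM in heterozygous replicates 6, 7 and 11. Their part in the Slc6a4 and Slc18a2 levels of that library was not tested.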
